A study of Homo sapiens with 8 samples.

Results

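The 10 genes of JAK and STAT signalling described here were measured in H3122, a human lung cancer cell line that depends on the EML4-ALK fusion kinase, and in 3 derivatives with evolved resistance to inhibitors of the ALK kinase (ALK-TKIs). The 10 genes were JAK1, JAK2, TYK2, STAT3, STAT5A, STAT5B, STAT6, SOCS2, SOCS3 and IL6ST. They were found by matching the Ensembl gene identifiers of the deposited table, without version, to these symbols in GENCODE release 44, and all 10 were present among the 43869 genes of the table. Naive H3122 cells had never been kept in an inhibitor. The line erCriz0 was maintained in 0.5 µM crizotinib, erAlec0 in 2 µM alectinib and erLor0 in 2 µM lorlatinib, each after a gradual increase of dose, and each was a single derivation. RNA was taken after 48 h without inhibitor, and the labels of the acetylation libraries give DMSO as the treatment in every line. Each of the 4 lines had 1 RNA-seq library and 1 ChIP-seq library for H3K27ac, the acetylation of lysine on histone H3 that marks active promoters and enhancers. With no replicates, the differences are descriptions of single libraries, and no test was made. The other samples of the series, erCriz1, erLor1, a sample named Lor 2w and pooled input DNA, were not analysed here.

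Janus kinases sit on the inner tails of cytokine receptors. When a ligand joins the receptor chains, the kinases phosphorylate the receptor and then STAT proteins, which pair, move to the nucleus and bind DNA. IL6ST encodes gp130, the signalling chain shared by the receptors of interleukin 6, oncostatin M and related cytokines, and STAT3 is its main effector in epithelial cells. SOCS proteins are induced by STATs and act back on the receptors and kinases as inhibitors. Oncogenic EML4-ALK is also known to signal through STAT3. These measurements are of RNA and acetylation, and they carry no information on phosphorylation.

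Values of both assays are rlog values, that is, normalised read counts on a log2 scale, with the differences of thinly read features shrunk toward 0. A change here is a resistant line's rlog less the naive rlog. It was called up from 1 and down from -1. Genes with an rlog of at least 4.64 in 1 or more libraries, which is log2 of 25 reads, were taken as expressed, and this held for 12701 genes, all 10 members among them. As the deposited values are not counts, library depth is unknown, and no counting error can be given. Median levels of the libraries were close, from 8.09 to 8.14 for expressed genes and from 4.02 to 4.13 for peaks. Of the markers fixed to check the cell type, 8 of 10 lung epithelial genes were expressed, against 0 of 6 leukocyte genes, 1 of 4 fibroblast genes and 2 of 4 endothelial genes present in the table. The lung epithelial genes not expressed were NAPSA and SFTPB, and the fibroblast gene expressed was COL1A1, at 9.49 in naive cells and 10.08 in erLor0. PTPRC, which defines leukocytes, was listed at 0 in all libraries.

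The DNA around the members is shown first, because SOCS3 carries several copies of the sequence that STAT dimers recognise and the peak over its main start was the only such peak of a member past the limit for acetylation. The motif TTCNNNGAA, the interferon-gamma-activated sequence, and a longer form with 4 bases between TTC and GAA, which STAT6 prefers, were searched on both strands, each being its own reverse complement. Peaks paired with a member held 33 matches of TTCNNNGAA, in 23.4% of 94 peaks, against 23.7% of all 126470 peaks, and the second motif was found in 22.3% against 21.0%. No match of one motif overlapped one of the other in these peaks. The members' peaks thus held the motifs about as often as any peak, and a match is only a run of letters, not a shown binding site. Matches of TTCNNNGAA per kb of peak were 0.405 in JAK2 and 0.347 in SOCS2, each from 1 match, 0.363 in STAT3 and 0.332 in IL6ST. They were 0.231 in JAK1 and 0.151 in STAT6, and TYK2, STAT5A and STAT5B had no match. SOCS3 had 11 matches of TTCNNNGAA in 6 of its peaks. That is 0.360 per kb of peak, within the range of the other members, against 0.299 per kb over all peaks. Of these, 2 in the peak over its main start site, 345 bases upstream of the start and 473 bases downstream of it, are printed here in this order from hg38, 5′ to 3′ on the strand of the gene, with the motif in capitals:
SOCS3 start peak, upstream window, chr17:78360373-78360472, minus strand: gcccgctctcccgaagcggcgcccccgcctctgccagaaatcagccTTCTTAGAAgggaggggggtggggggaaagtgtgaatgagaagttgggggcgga
SOCS3 start peak, downstream window, chr17:78359555-78359654, minus strand: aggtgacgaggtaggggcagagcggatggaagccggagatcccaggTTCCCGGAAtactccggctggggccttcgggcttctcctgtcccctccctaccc

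A further 2 matches lie 5844 and 6312 bases upstream of the SOCS3 start, in a separate peak that was up in erAlec0:
SOCS3 upstream peak, nearer window, chr17:78365872-78365971, minus strand: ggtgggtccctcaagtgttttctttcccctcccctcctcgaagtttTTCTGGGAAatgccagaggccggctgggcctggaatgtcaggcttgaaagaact
SOCS3 upstream peak, farther window, chr17:78366340-78366439, minus strand: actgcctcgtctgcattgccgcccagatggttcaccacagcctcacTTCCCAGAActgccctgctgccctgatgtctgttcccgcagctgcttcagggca

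STAT3, JAK2, STAT6 and IL6ST also hold matches within the peak over the main start site. That of STAT3 lies 385 bases inside the gene, in a window that overlaps an annotated exon. For JAK2 a match of TTCNNNGAA lies 1208 bases upstream of the start, and that of IL6ST, of the longer motif, lies 338 bases upstream. STAT6 holds only the longer motif there, and its match nearest the start, 238 bases upstream, is not printed. Another window is given for the large intronic peak of STAT3, 9241 bases from the start, which was up in erAlec0, again with the motif in capitals:
STAT3 start peak, chr17:42388008-42388107, minus strand: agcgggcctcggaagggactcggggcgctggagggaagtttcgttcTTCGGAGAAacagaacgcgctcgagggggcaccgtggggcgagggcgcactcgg
STAT3 intronic peak, chr17:42379152-42379251, minus strand: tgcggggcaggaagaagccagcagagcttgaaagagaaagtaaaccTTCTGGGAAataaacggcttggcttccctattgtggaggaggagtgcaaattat
JAK2 start peak, chr9:4984015-4984114, plus strand: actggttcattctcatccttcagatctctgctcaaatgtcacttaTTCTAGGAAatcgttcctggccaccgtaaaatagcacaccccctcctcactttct
IL6ST start peak, chr5:55995252-55995352, minus strand: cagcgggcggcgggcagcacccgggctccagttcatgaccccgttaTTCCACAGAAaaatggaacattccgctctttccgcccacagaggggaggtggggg

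SOCS2 had 1 match of TTCNNNGAA, 2036 bases upstream of its main start, and 1 of the longer motif, both within annotated UTRs and so not printed. In the RefSeq promoter windows of GRCh38.p14, which run from 250 bases before a start to 50 after it, TTCNNNGAA was present in 7.66% of 35116 windows and the longer motif in 6.44%. Of 17 windows for 9 members, SOCS2 having none, only 1 window of STAT5A held a match, of the longer motif. The windows of SOCS3 and STAT6 lie at RefSeq starts other than the main start and do not cover it. Matches beside the main starts of these genes therefore fall outside the windows. The parts of the STAT3 and IL6ST windows that lie outside annotated UTRs are shown without capitals, since neither window holds either motif. Both lie in the start peaks described later, and both are rich in G and C, with 65.3% over the whole window of STAT3 and 72.7% over that of IL6ST, against a median of 58.7% over all windows:
STAT3 promoter, chr17:42388541-42388692, minus strand: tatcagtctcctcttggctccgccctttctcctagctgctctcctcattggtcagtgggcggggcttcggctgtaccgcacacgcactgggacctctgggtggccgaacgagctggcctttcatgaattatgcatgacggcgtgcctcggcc
IL6ST promoter, chr5:55995023-55995213, minus strand: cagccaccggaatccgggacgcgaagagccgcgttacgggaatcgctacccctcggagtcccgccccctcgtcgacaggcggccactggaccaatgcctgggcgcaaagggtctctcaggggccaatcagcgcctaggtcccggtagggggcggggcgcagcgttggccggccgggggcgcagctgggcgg

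In RNA, the members were higher in erCriz0 than in naive cells in 10 of 10 genes, in erAlec0 in 9 and in erLor0 in 6. Under quantile normalization STAT6 fell just below naive in erCriz0, at -0.04, leaving 9. With each library centred on its median, STAT6 in erAlec0 and IL6ST in erLor0 came out higher too, giving 10 and 7. SOCS2, SOCS3 and IL6ST were up in erCriz0, joined by JAK2 under both other scalings, SOCS2 and SOCS3 were up in erAlec0, and no member was up in erLor0. No member was down in any line. Among all expressed genes, 2.65% were up and 1.65% down in erCriz0, in erAlec0 2.46% were up and 2.07% down, and in erLor0 1.10% were up and 0.740% down. In bulk samples, fewer cells with a transcript and less of it per cell cannot be told apart, and all 3 comparisons share the naive library. The median change of the members was 0.68 in erCriz0 cells, 0.34 in erAlec0 cells and 0.15 in erLor0 cells, beside medians of -0.02, 0.00 and -0.00 over expressed genes.

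**Figure D1:**
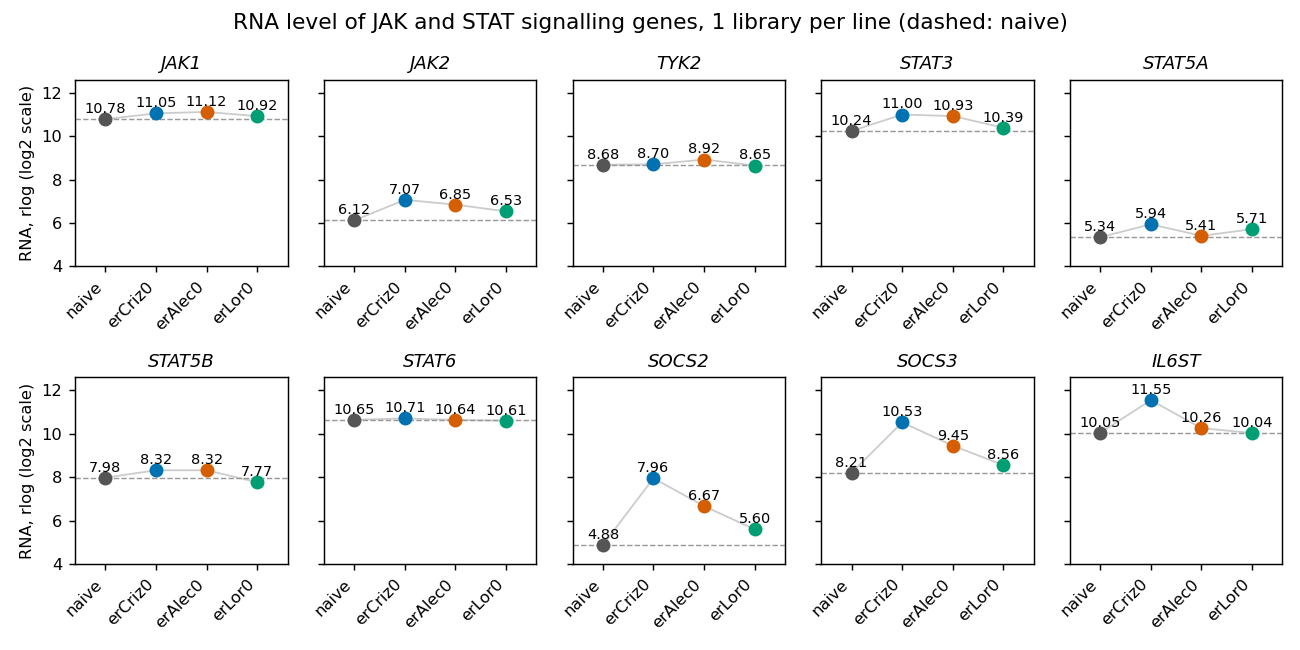
RNA level (rlog, log2 scale) of each of the 10 genes in naive, erCriz0, erAlec0 and erLor0 cells, 1 point per library, with the naive level as a dashed line. SOCS2 climbs from 4.88 in naive cells to 7.96 in erCriz0, SOCS3 from 8.21 to 10.53 and IL6ST from 10.05 to 11.55, while STAT6 stays between 10.61 and 10.71. There are no error bars because each line has 1 library, and levels of different panels are not corrected for gene length.

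The 2 inhibitors of the pathway had the largest changes among the members in erCriz0 and erAlec0, while in erLor0 JAK2 and STAT5A changed more than SOCS3. SOCS2, which restrains growth hormone and STAT5 signalling, had an RNA rlog of 4.88 in naive cells, 7.96 in erCriz0 cells, 6.67 in erAlec0 cells and 5.60 in erLor0 cells. It was lowest in naive cells and highest in erCriz0, and its changes from naive were 3.07, 1.79 and 0.72. Only 0.0787% of expressed genes had a higher change in erCriz0. SOCS2 shares 277 exon bases, 4.28% of its exons, with SOCS2-AS1 on the other strand, and the sources used here do not state how strand was set in counting, so reads of the gene and its partner there cannot be told apart.

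SOCS3, the inhibitor that binds gp130 and its kinases, stood at 8.21 in naive cells, 10.53 in erCriz0, 9.45 in erAlec0 and 8.56 in erLor0. Its changes were 2.32, 1.24 and 0.35, the same order of lines as for SOCS2, and 0.283% of expressed genes had a higher change in erCriz0. Between the resistant lines, with no use of the naive library, SOCS3 in erLor0 was lower than in erCriz0 by a difference of -1.97 and SOCS2 by one of -2.36.

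IL6ST, the gp130 receptor chain, stood at 10.05 in naive cells, 11.55 in erCriz0, 10.26 in erAlec0 and 10.04 in erLor0. Its change of 1.5 in erCriz0 was set apart from 0.21 in erAlec0 and -0.01 in erLor0, so the rise past the limit was seen in 1 of 3 lines. An antisense gene, ENSG00000262211, overlaps 797 bases or 6.61% of its exons.

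Of the kinases, JAK2, which serves gp130 and the growth hormone and erythropoietin receptors, came closest to the limit. Its rlog was 6.12 in naive cells, 7.07 in erCriz0, 6.85 in erAlec0 and 6.53 in erLor0, giving changes of 0.95, 0.73 and 0.42. The change in erCriz0 lies just under the limit of 1 and passed it, at 1.00 and 1.01, with the libraries centred on their medians and under quantile normalization, which makes 4 members up there. The smallest change of a member past it was that of SOCS3 in erAlec0. JAK1, a kinase used by gp130 and the interferon receptors, ran from 10.78 in naive cells to 11.12 in erAlec0, with 11.05 in erCriz0 and 10.92 in erLor0. TYK2, a partner kinase of interferon and interleukin 12 receptors, read 8.68 in naive cells, 8.70 in erCriz0, 8.92 in erAlec0 and 8.65 in erLor0. The largest change of these 2 kinases was 0.33, that of JAK1 in erAlec0.

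Among the transcription factors, STAT3 had the largest RNA change in erCriz0 and erAlec0, and STAT5A in erLor0. Its rlog was 10.24 in naive cells, 11.00 in erCriz0 cells, 10.93 in erAlec0 cells and 10.39 in erLor0 cells, with changes of 0.76, 0.69 and 0.15. Its levels in erCriz0 and erAlec0 were both above those of naive cells and erLor0, under the limit, and 4.62% of expressed genes changed more in erCriz0. STAT5A, an effector of prolactin and growth hormone receptors, was at 5.34 in naive cells, 5.94 in erCriz0, 5.41 in erAlec0 and 5.71 in erLor0. STAT5B, its close relative, was at 7.98, 8.32, 8.32 and 7.77 in these lines. Of the stretches of 50 bases in the main STAT5A transcript, 15.1% also occur in any transcript of STAT5B, read on either strand. The 2 genes overlap on opposite strands by 415 exon bases, which that share can include. Reads of these stretches cannot be divided with certainty. STAT6, the effector of interleukin 4 and 13, was flat, at 10.65 in naive cells, 10.71 in erCriz0, 10.64 in erAlec0 and 10.61 in erLor0.

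Across lines, 6 of 10 members had their changes in the order erCriz0, erAlec0, erLor0 from high to low, an order that 18.9% of expressed genes showed. In all, 7 of 10 had their highest level of all 4 lines in erCriz0, against 31.2% of expressed genes. The genes share the same 4 libraries, so these counts describe the libraries and are not 10 separate observations. Without SOCS2, SOCS3 and IL6ST, a choice made after seeing the data, the median of the other 7 members was 0.34 in erCriz0.

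Levels of different genes were compared as rlog minus log2 of the exon length in kb, taken over the exons of all annotated transcripts together. For STAT5B this length was 12.11 kb, while its main transcript has 5079 bases, and an order by main transcripts was not made. On this scale the naive order was STAT6 at 7.78, JAK1 at 7.06, SOCS3 at 6.76, STAT3 at 6.75, IL6ST at 6.46, TYK2 at 5.59, STAT5B at 4.39, JAK2 at 3.13, STAT5A at 2.67 and SOCS2 at 2.19. In erCriz0, SOCS3 stood first at 9.08 and IL6ST next at 7.96, ahead of STAT6 at 7.85, and SOCS2 had moved from the last place to 5.26, above STAT5B, JAK2 and STAT5A. With 1 library a line, no neighbours in these orders can be said to differ.

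The genes whose pattern over the 4 lines was most like that of STAT3, by the distance between rlog values after subtraction of each gene's mean, were PLSCR1 at 0.0443, QPCT at 0.0545 and ALPK1 at 0.0556. PLSCR1, a phospholipid scramblase that interferons induce, had RNA changes of 0.70, 0.66 and 0.14 in erCriz0, erAlec0 and erLor0. Nearest to SOCS2 were SPRR1B, a cornified envelope protein, at a distance of 0.303, VIM, which encodes vimentin, at 0.503, and KCNQ3, a potassium channel, at 0.525. VIM had changes of 2.39, 1.46 and 0.53. These are likenesses over 4 libraries only.

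H3K27ac was read in 94 distinct peaks that the table pairs with a member, lying within 20 kb of it, in 99 pairs. JAK1 had 24, STAT6 16, IL6ST 14, SOCS3 13, STAT3 11, STAT5B 7, STAT5A and SOCS2 5 each, TYK2 3 and JAK2 1. Of these peaks 7 covered the main start site of a member, taken as the start of the canonical Ensembl transcript. A start of another transcript of the member was covered by 6, 34 lay in introns, 4 touched an exon, 23 lay upstream and 20 downstream. A peak paired with several members was placed by the first of them in the order listed at the opening. The peak chr17:42276445-42277526, at another start of STAT5B, was thus counted as upstream of STAT5A. Only 10 of the 94 peaks were paired with 1 gene, and most can therefore belong to neighbours too. In 26 of the 94 peaks the rlog was under 3.91, log2 of 15 reads, in all 4 libraries, as it was in 7 of the 33 peaks past the limit in 1 or more lines.

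In erCriz0, 7 member peaks were up and 2 down, where 7.00% of all peaks were up and 5.94% down. In erAlec0, 13 were up and 8 down, beside 14.1% and 9.41% of all peaks. In erLor0 there were 5 up and 4 down, beside 7.45% and 8.82%. Up peaks were about as frequent as in the background in erCriz0 and erAlec0, and down peaks were less frequent than in it in erCriz0 and erLor0, which was not tested. The medians over the 94 peaks were 0.13, 0.22 and 0.09. Under quantile normalization the split in erCriz0 became 7 up and 0 down, that in erAlec0 12 and 10, and that in erLor0 3 and 4, and with the libraries centred on their medians it was 9 and 1, 13 and 9, and 6 and 3.

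**Figure D2:**
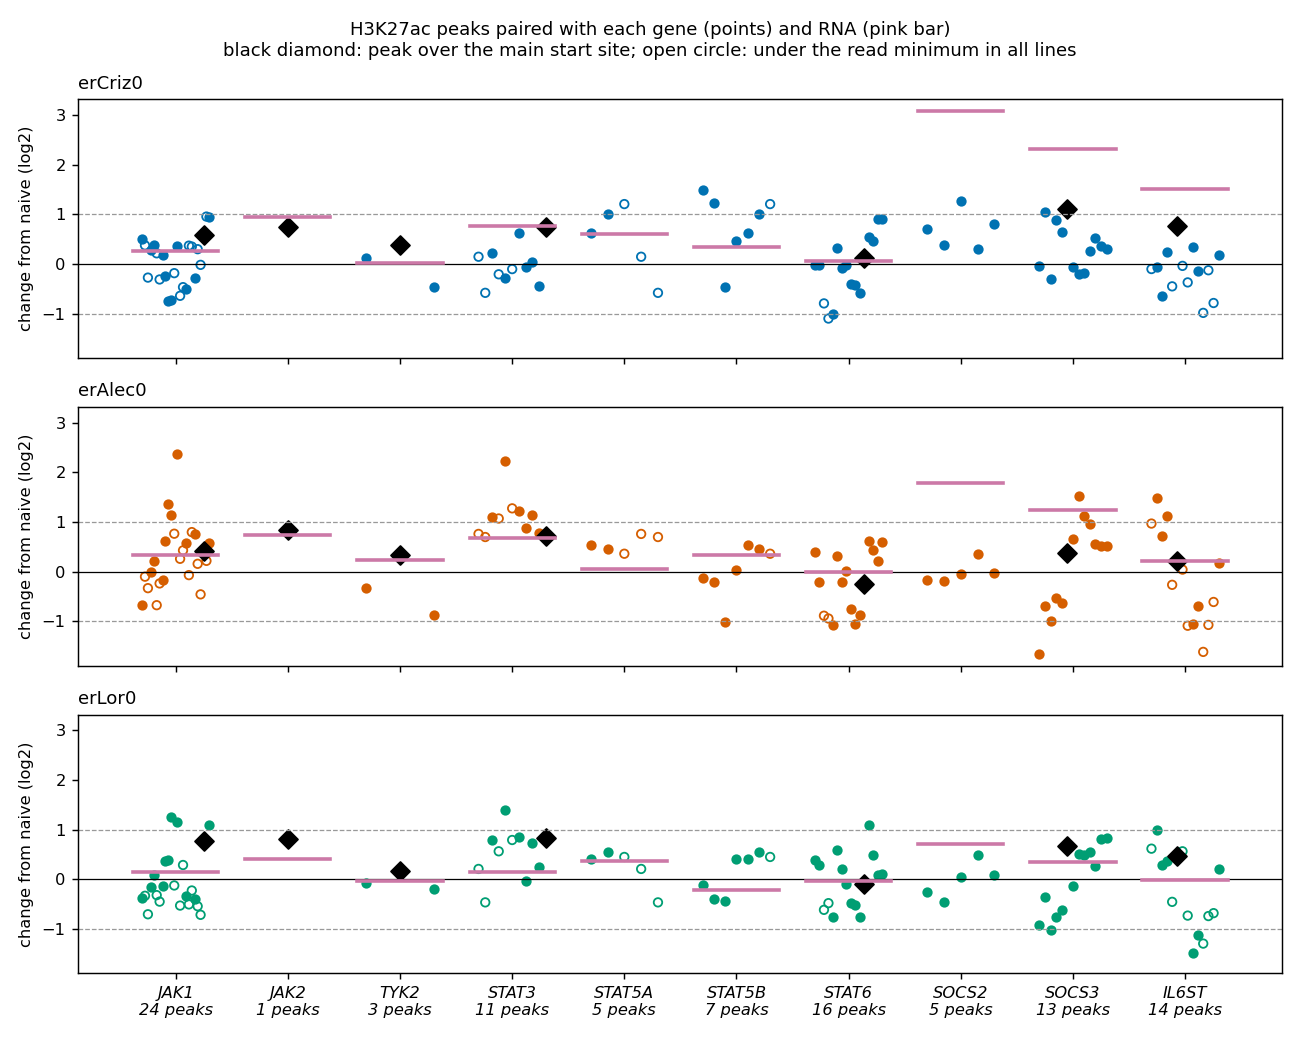
H3K27ac change from naive (log2) of every peak paired with each gene, 1 panel per resistant line, with the RNA change as a pink bar, the peak over the main start site as a black diamond, peaks under the read minimum in all lines as open circles, and dashed lines at 1 and -1. In erAlec0 all 11 peaks of STAT3 lie above 0, while those of SOCS3 and IL6ST spread from below -1 to above 1. Each point is 1 peak and not a replicate, and a peak paired with several members is drawn for each.

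Of the members, 7 had a peak over the main start site: JAK1, JAK2, TYK2, STAT3, STAT6, SOCS3 and IL6ST. STAT5A and SOCS2 had none, and that of STAT5B ended 54 bases short of it. All 7 start peaks were higher in erCriz0 than in naive cells, and 6 were in erAlec0 and in erLor0, STAT6 being the exception in both. Start peaks were higher throughout the genome, however, in 86.6%, 75.4% and 88.0% of 9456 promoter peaks of expressed genes. The medians of the 7 were 0.74, 0.38 and 0.67, and those of all such peaks 0.35, 0.27 and 0.43.

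The SOCS3 start peak, chr17:78357163-78361708, in which the pair of motif windows shown first lie, had an rlog of 9.17 in naive cells, 10.27 in erCriz0 cells, 9.54 in erAlec0 cells and 9.83 in erLor0 cells. It was highest in erCriz0, where its change of 1.10 was exceeded by 2.70% of promoter peaks, and was the only peak over a main start of a member past the limit. The same peak covers the start of SOCS3-DT, a divergent noncoding gene. RNA and acetylation at SOCS3 did not rank the other lines alike, since the RNA change was larger in erAlec0 and the start peak change larger in erLor0, at 0.38 and 0.67.

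The start peak of IL6ST, chr5:55993958-55996209, read 8.36 in naive cells, 9.11 in erCriz0, 8.58 in erAlec0 and 8.83 in erLor0. As with its RNA, erCriz0 was the highest line, with a change from naive of 0.76, which 11.1% of promoter peaks exceeded. The other lines did not rank as in RNA, since the start peak change was 0.22 in erAlec0 and 0.48 in erLor0. This IL6ST peak also covers the start of IL6ST-DT. The single peak of JAK2, chr9:4983920-4986386, read 7.97, 8.71, 8.80 and 8.78 in the 4 lines, with changes of 0.74, 0.83 and 0.81 that were nearly equal. Other peaks within 5 Mb of it had median changes of 0.24, 0.33 and 0.21. The STAT3 start peak, chr17:42385579-42389479, read 8.53, 9.28, 9.25 and 9.36. Its changes of 0.75, 0.72 and 0.82 were likewise alike over the resistant lines, beside an RNA change of 0.15 in erLor0.

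The JAK1 start peak, chr1:64965223-64967185, changed by 0.58, 0.43 and 0.77, and a second JAK1 start at chr1:65065949-65069316 by 0.95, 0.58 and 1.10, past the limit in erLor0. That of TYK2, chr19:10379594-10381618, changed by 0.38, 0.33 and 0.16. That of STAT6, chr12:57100855-57113153, is 12299 bases long, is also paired with the neighbour NAB2 and changed by 0.11, -0.26 and -0.10.

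Away from its start, STAT3 gained acetylation in erAlec0. All 11 peaks, the start peak included, were higher there than in naive cells. Of these 6 were up, beside 14.1% of all peaks, and the median change was 1.07, beside -0.01 for other peaks within 5 Mb. In all, 4 of the 11 were under the read minimum in all lines, among them chr17:42366083-42366479 and chr17:42370060-42370514, up by 1.07 and 1.27. In erLor0, 9 of 11 were higher and 1 was up, with a median of 0.73, and in erCriz0 none was up. The largest change was in the intronic peak chr17:42366897-42369560, whose centre lies 20.2 kb inside the gene: it read 5.20 in naive cells, 4.92 in erCriz0, 7.42 in erAlec0 and 6.58 in erLor0. Naive and erCriz0 cells were thus low and erAlec0 and erLor0 high, with changes of -0.28, 2.22 and 1.39. The longer intronic peak chr17:42377066-42381626, which holds the intronic window shown before, read 7.74, 8.37, 8.95 and 8.58. The lowest change of any STAT3 peak was -0.58 in erCriz0, in a peak under the read minimum at chr17:42326120-42326338 that is also paired with STAT5A. STAT3 RNA was higher by similar amounts in erCriz0 and erAlec0, while these intronic peaks were higher in erAlec0.

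**Figure D3:**
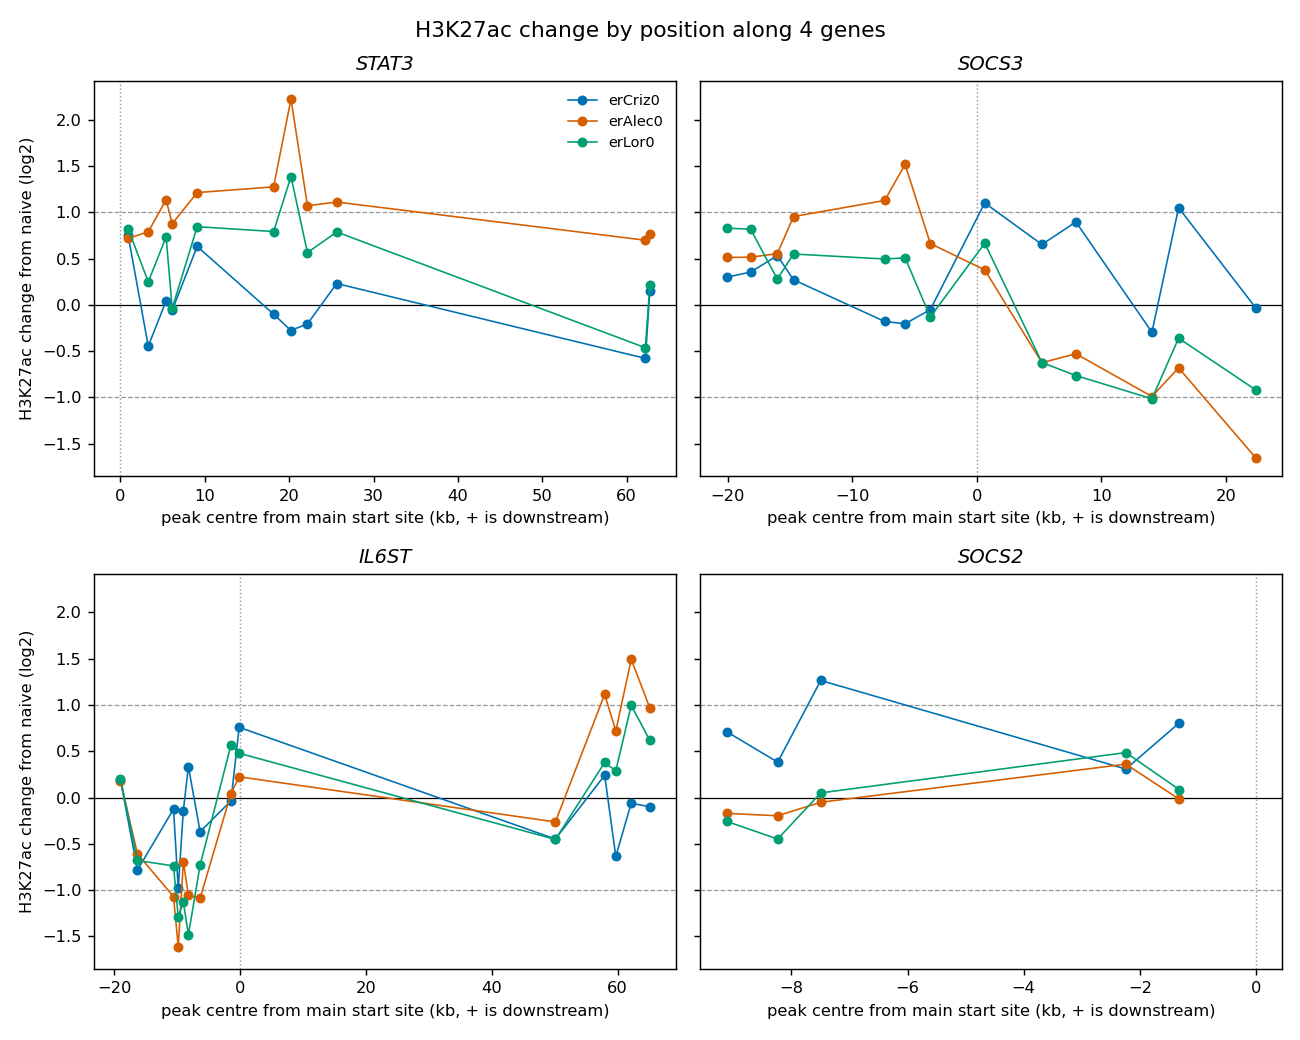
H3K27ac change from naive (log2) against the distance of the peak centre from the main start site (kb, positive downstream) for STAT3, SOCS3, IL6ST and SOCS2, 1 line per resistant line and 1 point per peak. In STAT3 the erAlec0 points lie above 0.69 along the whole gene. In SOCS3 the erAlec0 and erLor0 points lie above 0 upstream and at the start peak, but for 1 erLor0 point at -0.13. Farther downstream of the SOCS3 start peak they lie below 0. In SOCS2 the erCriz0 points lie highest in 4 of 5 peaks. The lines between points only guide the eye.

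SOCS3 showed opposite sides. Of the 5 peaks downstream of the gene, all were lower than naive in erAlec0 and erLor0, while 3 were higher in erCriz0. The farthest, chr17:78333436-78341851, centred 22.4 kb from the start, read 10.12 in naive cells, 10.09 in erCriz0, 8.47 in erAlec0 and 9.20 in erLor0. Its change of -1.66 in erAlec0 was the lowest of any member peak, against -0.04 in erCriz0. The next, chr17:78342019-78345703, read 8.13, 9.18, 7.45 and 7.77, so that it was up by 1.05 in erCriz0 and lower in the other lines by changes of -0.68 and -0.36.

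A small peak beside it, chr17:78345791-78346215, was down in erLor0, at -1.01, and changed by -0.99 in erAlec0. The 2 peaks nearest the gene, chr17:78351311-78352914 and chr17:78353004-78356678, changed by 0.90 and 0.65 in erCriz0, by -0.53 and -0.62 in erAlec0 and by -0.76 and -0.62 in erLor0. Their centres lie 7.96 and 5.24 kb downstream of the start, and both were higher in erCriz0 and lower in the other lines.

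Upstream of SOCS3 all 7 peaks were higher in erAlec0 and 6 of 7 in erLor0. The peak chr17:78364908-78366758, which holds the pair of upstream windows, read 5.85 in naive cells, 5.64 in erCriz0 cells, 7.36 in erAlec0 cells and 6.35 in erLor0 cells, for changes of -0.20, 1.52 and 0.51. Its neighbour chr17:78367224-78367730 was up in erAlec0 as well, by 1.13. These upstream peaks are also paired with PGS1, a phospholipid synthesis gene. Among the 7, chr17:78376643-78379858 covers the start of PGS1 and changed by 0.51 in erAlec0 and 0.82 in erLor0. SOCS3 RNA was higher in both erCriz0 and erAlec0, whereas its peaks past the limit upward were the start peak and a downstream one in erCriz0 and 2 upstream ones in erAlec0.

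At SOCS2 all 5 peaks were higher in erCriz0, with a median of 0.71 beside -0.17 for other peaks within 5 Mb. The 3 upstream peaks, 7.50 to 9.12 kb from the start, changed by -0.45 to 0.05 in the other lines. The peak chr12:93564970-93565390 read 3.06 in naive cells, 4.33 in erCriz0 cells, 3.01 in erAlec0 cells and 3.11 in erLor0 cells and was the only one past the limit, up by 1.26 in erCriz0. The lowest change was -0.45 in erLor0, in the peak chr12:93564164-93564713. SOCS2 RNA was up in erAlec0 by 1.79 while the median of its peaks there was -0.05. All 5 peaks are shared with SOCS2-AS1.

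IL6ST had losses upstream and gains at the far end of the gene. A run of 5 small peaks between 6.32 and 10.5 kb upstream, from chr5:56001105-56001459 to chr5:56005378-56005637, changed by -1.61 to -0.69 in erAlec0 and by -1.48 to -0.73 in erLor0, with 4 of them down in erAlec0 and 3 in erLor0. In erCriz0 none was down and the changes ran from -0.98 to 0.33. Of these peaks 3 were under the read minimum in all lines. The peak with the largest fall, chr5:56004591-56004923, is among those, while chr5:56002782-56003505 read 4.61 in naive cells, 4.95 in erCriz0, 3.56 in erAlec0 and 3.13 in erLor0.

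Downstream of IL6ST, chr5:55931468-55934167 read 7.14 in naive cells, 7.08 in erCriz0, 8.64 in erAlec0 and 8.14 in erLor0. Its change was 1.49 in erAlec0, 1.00 in erLor0, just under the limit at 0.996, and -0.06 in erCriz0. A smaller peak over an exon, chr5:55936751-55937319, was up in erAlec0 by 1.11. Both are also paired with IL31RA, a receptor gene that lies next to IL6ST. In erCriz0, where IL6ST RNA was up, this smaller peak changed by 0.24.

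The STAT5 genes lie side by side on chromosome 17 and shared 3 peaks, and each shared peak is counted for both. The peak at the STAT5B start, chr17:42276445-42277526, which lies 10021 bases from STAT5A, read 6.17 in naive cells, 7.18 in erCriz0, 6.64 in erAlec0 and 6.73 in erLor0, up by 1.00 in erCriz0. The intronic STAT5A peak chr17:42288761-42288974 was up there by 1.21 but was under the read minimum in all lines. Downstream of STAT5B, chr17:42183099-42184233 and chr17:42184461-42185740 were up in erCriz0 by 1.49 and 1.24. They lie at HCRT and are also paired with KCNH4 and GHDC, and in the other lines they changed by -0.40 to -0.11. The peak chr17:42192326-42192912 beside GHDC was down in erAlec0, at -1.01. The lowest change of a STAT5A peak was the shared value of -0.58 given with STAT3.

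Of the 24 peaks of JAK1, 12 were under the read minimum in all lines. In its introns chr1:64944890-64945271 read 2.87 in naive cells, 3.24 in erCriz0, 5.24 in erAlec0 and 4.02 in erLor0, the largest change of any member peak at 2.36 in erAlec0. A pair of adjacent peaks, chr1:64922793-64923465 and chr1:64923636-64924232, were up by 1.36 and 1.14 in erAlec0 and lower by changes of -0.73 and -0.71 in erCriz0. The lowest change of a JAK1 peak was the former of these. No JAK1 peak was down in any line, and JAK1 RNA stayed near its naive level throughout.

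STAT6, flat in RNA, had 4 peaks past the limit. Downstream of it, chr12:57082205-57082803 read 4.33 in naive cells, 3.32 in erCriz0, 3.25 in erAlec0 and 3.57 in erLor0, down in erCriz0 and erAlec0. Its neighbour chr12:57081715-57081948 was down in erCriz0 by a change of -1.10, under the read minimum, and the intronic chr12:57097900-57098243 was down in erAlec0 at -1.05. Upstream of the main start, chr12:57126915-57128441 was up in erLor0 by 1.09 and is also paired with LRP1. The 3 peaks of TYK2 stayed inside the limits, with the lowest change, -0.88 in erAlec0, at chr19:10400421-10400957.

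In all, 5 lists of other genes of the pathway were read beside the members, with 73 genes, of which 71 were in the table and 57 expressed. Over the 5 lists 7 genes were up in erCriz0 cells, 3 in erAlec0 cells and 0 in erLor0 cells, and none was down in any line, to be read against the background shares given for the members. Their medians were 0.18, 0.15 and 0.02.

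**Figure D4:**
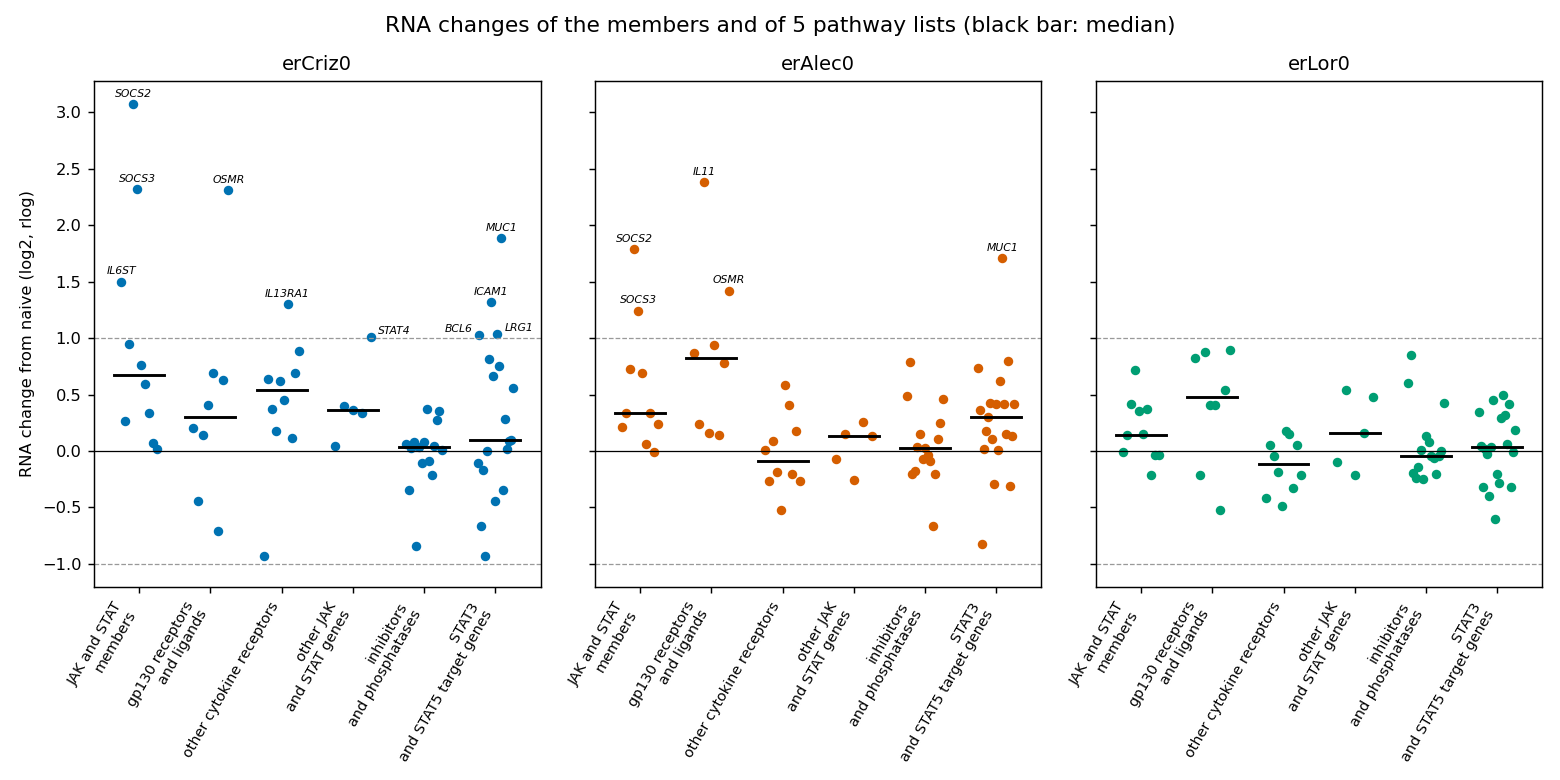
RNA change from naive (log2, rlog) of the 10 members and of the expressed genes of 5 pathway lists, 1 panel per resistant line, 1 point per gene, with the median of each list as a black bar, dashed lines at 1 and -1, and names at genes past them. SOCS2 at 3.07, SOCS3 at 2.32 and OSMR at 2.31 stand highest in erCriz0 and IL11 at 2.38 in erAlec0, and no gene passes a limit in erLor0.

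Of receptors and ligands that act through gp130, 8 of 12 were expressed. OSMR, the oncostatin M receptor chain that pairs with gp130, read 10.70 in naive cells, 13.01 in erCriz0 cells, 12.12 in erAlec0 cells and 11.59 in erLor0 cells. It was lowest in naive cells and highest in erCriz0, with changes of 2.31, 1.42 and 0.89. IL11, a secreted gp130 cytokine, read 3.66, 3.80, 6.05 and 4.53 in the same lines, so that its change of 2.38 lay in erAlec0. LIF, another such cytokine, had the lowest changes of the list in erCriz0 and erLor0, at -0.71 and -0.52, and the list's medians were 0.30, 0.83 and 0.48, with all 8 genes higher in erAlec0.

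Of 18 other cytokine receptors, 16 were in the table and 10 expressed, CSF2RA and CSF2RB not being found there. IL13RA1, the interleukin 13 receptor chain, was up in erCriz0 by 1.30, and EPOR, the erythropoietin receptor, had the lowest change there at -0.93. In erAlec0 and erLor0 IFNGR2 had the highest changes, 0.59 and 0.18, and IFNGR1 the lowest, -0.52 and -0.49, both being chains of the interferon gamma receptor. The list's medians were 0.54, -0.09 and -0.12.

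All 5 other JAK and STAT genes were expressed, and STAT4 was up in erCriz0 by 1.01. The highest changes were those of STAT2, an effector of interferons, in erAlec0, at 0.25, and of JAK3, a kinase of the common gamma chain receptors, in erLor0, at 0.54. IRF9, which joins STAT2 in a complex, was lowest in erCriz0 at 0.04.

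Of 16 other inhibitors and phosphatases, 15 were expressed and none was past the limit in any line. CISH, a SOCS family inhibitor, had the highest changes in erAlec0 and erLor0, at 0.79 and 0.85, and read lower in erCriz0 by a change of -0.35. PTPN2, a phosphatase of JAK1 and STATs, was highest in erCriz0 at 0.37. PIAS3, an inhibitor of STAT3, had the lowest change in erCriz0, -0.84, SH2B3 that in erAlec0, -0.66, and PTPN1 that in erLor0, -0.25.

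Of 22 genes known as targets of STAT3 or STAT5, 19 were expressed, with 4 up in erCriz0, 1 in erAlec0 and 0 in erLor0. MUC1, a membrane mucin that was also among the epithelial markers, was up by 1.88 in erCriz0 and 1.71 in erAlec0 and had the highest change of the list in erLor0, 0.50. ICAM1, an adhesion molecule, was up in erCriz0 by 1.32, LRG1, a secreted glycoprotein, by 1.03 and BCL6, a repressor, by 1.02. The lowest changes were those of CEBPB in erCriz0, -0.93, BIRC5, the survivin gene, in erAlec0, -0.82, and IRF1 in erLor0, -0.61. The list's medians were 0.10, 0.30 and 0.04, with genes on both sides of 0 in every line.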

How the data were processed

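RNA and H3K27ac were each measured in 1 library of naive H3122, erCriz0, erAlec0 and erLor0 cells. The authors deposited 1 table of peaks paired with genes within 20 kb, with log2 values made by the DESeq2 rlog function. Per the study's methods, RNA reads were aligned to hg38 with HISAT2 and counted with HTSeq-count. ChIP-seq reads of 75 nt were aligned to hg38 with BWA, duplicates and reads with mapping quality under 25 were removed, MACS2 peaks of 4 samples were merged, and reads were counted with featureCounts. Versions are not given in the sources used here, and no subtraction of input is stated. The deposited correlation score and p-value of each pair are the authors' comparisons and were not used.

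Here, changes were resistant minus naive rlog. The limit was 1 in either direction, with no test. Genes were matched to GENCODE release 44, whose coordinates were the same for all 34115 genes with a shared identifier version. Alternatives were centring, quantile normalization, other limits, other peak sets, leaving out members in turn and a 2 Mb region. The members, lists and alternatives were chosen with earlier results of these data known. Named were the members, list genes past the limit, each list's highest and lowest change per line, the 3 genes most like STAT3 and SOCS2, and each member's highest and lowest peak, with all peaks past the limit where they numbered 5 or fewer. Peaks of STAT3, SOCS3 and IL6ST beyond this rule were chosen after their values were seen. A planned comparison of STAT proteins was not run. Some genes and a sequence are not reported here. Scripts were tested on simulated data. Python 3.11.15, numpy 2.4.6, pandas 2.3.3 and matplotlib 3.10.9 were used.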

Additional observations from a re-analysis of the deposited data

Results flagged for a closer look

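Among the 94 member peaks, 6 or 6.38% moved in opposite directions in different resistant lines, with both changes past 0.58 on the log2 scale (log2 of 1.5), beside 5.76% or 7288 of all 126470 peaks. Each rests on 1 library per line, and none of these differences was tested. No member did so in RNA.

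In the JAK1 intron, the peak chr1:64922793-64923465 was up by 1.36 in erAlec0 and lower by a change of -0.73 in erCriz0, a difference of 2.09. The peak next to it, chr1:64923636-64924232, differed by 1.97 between erLor0, at 1.25, and erCriz0, at -0.71. Downstream of SOCS3, chr17:78342019-78345703 differed by 1.73 between erCriz0, at 1.05, and erAlec0, at -0.68. The peak chr17:78351311-78352914 differed by 1.66 between erCriz0, at 0.90, and erLor0, at -0.76. The third there, chr17:78353004-78356678, differed by 1.28 between erCriz0, at 0.65, and erAlec0, at -0.62. At the far end of IL6ST, chr5:55934276-55936257, which also covers the start of ENSG00000262211, differed by 1.35 between erAlec0, at 0.72, and erCriz0, at -0.64.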

How the results depend on the processing

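Of 303 values computed under other settings, 228 lay within 0.1 of the main value or, for counts, within 1.5 times of it, and 1 changed sign with both values past 0.1. No paired analysis was possible because each line has 1 library and no test was made. Depth is unknown, so no limit from depth can be given. Centring and quantile normalization each gave 4 members up in erCriz0, JAK2 being added at 1.00 and 1.01, and left the other RNA counts past the limit as they were. At a limit of log2 of 1.5, members up became 6, 4 and 1 in erCriz0, erAlec0 and erLor0, and at a limit of 2, members up in erAlec0 became 0. Leaving out each member in turn gave 2 to 3 up in erCriz0, 1 to 2 in erAlec0 (1 without SOCS2 or without SOCS3) and 0 in erLor0, 0 down in all lines, and medians of 0.60 to 0.76, 0.33 to 0.34 and 0.14 to 0.15. Without SOCS2, SOCS3 and IL6ST the erCriz0 median was 0.34.

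For peaks, quantile normalization gave 0 down in erCriz0 and 3 up in erLor0, and centring gave 1 down in erCriz0 and a median of 0.19 in erLor0. A limit of log2 of 1.5 gave 20 up with 10 down in erCriz0, 30 with 20 in erAlec0, 18 with 15 in erLor0, and a limit of 2 gave 0 and 0, 2 and 0, and 0 and 0. Over 63 peaks within 5 kb, 4 were up and 0 down in erCriz0, 1 down in erAlec0 and 0 down in erLor0, with medians of 0.43 in erAlec0 and 0.21 in erLor0. Over 10 peaks paired with 1 gene, which are mostly those of STAT3 and JAK1, there were 0 up with 0 down in erCriz0, 5 with 0 in erAlec0, 1 with 0 in erLor0, and medians were 0.25, 0.95 and 0.68. Over 68 peaks at or above the read minimum, 1 was down in erCriz0 and 5 in erAlec0, with medians of 0.27, 0.34 and 0.20. The median of the members' own medians was 0.25 in erCriz0. After subtraction of the median of peaks of like level, added after seeing the data, 0 were down in erCriz0, 4 down in erAlec0 and 3 up in erLor0, with an erLor0 median of -0.015. The start peak medians became 0.39, 0.10 and 0.24 after subtraction of the promoter median, and 0.42, 0.22 and 0.44 after that of peaks of like level, both added after seeing the data. The IL6ST peaks in erLor0 were above their 5 Mb region by 0.15 and at -0.20 against a 2 Mb region. Where values moved, the cause was not tested beyond the settings' own construction.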
